A study of Mus musculus with 18 samples.

Results

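The miR-378 family was followed here through 3 mature miRNA names, mmu-miR-378a-3p, mmu-miR-378a-5p and mmu-miR-378c, written below without the mouse prefix. They were taken by name from a table of 2042 mature miRNA names measured by small RNA sequencing in 18 libraries of C2C12 cells, a mouse myoblast line that fuses into myotubes when serum is withdrawn. Differentiated cells had spent 7 days in medium with 2% horse serum, and undifferentiated cells were myoblasts grown in medium with 10% fetal calf serum. The eluates came from miTRAP, in which a bait RNA tagged with MS2 hairpins is captured from a cell extract together with the miRNAs that go with it. The bait was MRTF-A, whose message encodes a coactivator of serum response factor, and an MS2 control bait was carried alongside. The 6 groups of 3 libraries were eluates of the MRTF-A bait from differentiated and from undifferentiated cells, eluates of the MS2 control from differentiated and from undifferentiated cells, and input RNA of differentiated and of undifferentiated cells. The treatment label gives the differentiation medium for all samples, undifferentiated ones too, so the state was read from the sample titles and the differentiation label. All groups share 1 cell line, and whether the replicate libraries stem from independent cultures is not stated, so each p-value measures the spread between libraries, which may be technical. Libraries of a group are called A, B and C after the order of the table's column suffixes.

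miR-378a is cut from a hairpin in an intron of Ppargc1b, on the strand of that gene, which encodes PGC-1β, a coactivator of mitochondrial and fatty acid oxidation genes. The 3p arm is usually the one loaded into Argonaute, and the 5p arm is the strand more often discarded. In mouse myoblasts miR-378a-3p is known to be induced during differentiation and to repress MyoR, an antagonist of MyoD. The mouse genome holds other hairpins whose mature products resemble the 3p arm, among them miR-378b, miR-378c and miR-378d. By the GENCODE annotation, Mir378c lies within an intron of Samd4 and Mir378b within an intron of Msi2, each on the opposite strand to its host, and no annotated gene overlaps Mir378d.

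The mature sequences of the 3 relatives are shown because their near identity bears on how reads could be shared between names. They are RefSeq's, on build GRCm38.p6, written 5′ to 3′ with the seed (bases 2 to 8) in capitals.
miR-378c: aCUGGACUuggagucagaagc
miR-378d: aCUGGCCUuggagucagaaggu
miR-378b: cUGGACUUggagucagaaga
Mature miR-378c lies at chr14:46954905-46954925 on the minus strand, miR-378d at chr10:126710355-126710376 on the minus strand and miR-378b at chr11:88352839-88352858 on the plus strand. Counted from 1 at the 5′ end of miR-378c, miR-378d differed by A6C and C21G and matched at 19 of 21 aligned bases. The first of these falls in the seed, so the 2 names have different seeds. miR-378b starts 1 base later, which shifts its seed by 1 base, and differed from miR-378c by C21A with 19 of 20 aligned bases identical. miR-378c is also close to the 3p arm of miR-378a, so its reads cannot be assigned with certainty where the sequencing or the matching allowed an error.

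The deposited values are read counts scaled by the authors to CPM of an effective library size, a unit in which libraries of different depth share 1 scale. Whole reads could be recovered from them, with 100% of values within 0.01 read of a whole number. The table held 4696187 reads. The MRTF-A eluates of differentiated cells held 306483 to 544504 reads each, and those of undifferentiated cells 107165 to 352674. The MS2 control eluates were far shallower, with 15562 to 23433 reads from differentiated and 20525 to 39695 from undifferentiated cells. The inputs held 314110 to 462847 reads in differentiated and 294112 to 860828 in undifferentiated cells. The authors' normalisation factors were 0.341 to 0.634 in MRTF-A eluates and 1.24 to 2.37 in MS2 control eluates, so that fold changes between kinds of library rest on that scaling. In 3 of the 6 MS2 control libraries (differentiated A and B, undifferentiated A) at least 0.5% of reads carried human miRNA names. The muscle miRNAs miR-1a-3p, miR-133a-3p and miR-206-3p, which mark the differentiated state, summed to 38668 to 57068 CPM in differentiated inputs and 225 to 1389 CPM in undifferentiated inputs.

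miR-378a-3p was among the most abundant miRNAs of these cells. In differentiated inputs it stood at 47407, 53891 and 43199 CPM (libraries A, B and C), and in undifferentiated inputs at 16773, 12395 and 20038 CPM. All 3 differentiated libraries were higher than all 3 undifferentiated ones. How many of all names tested were likewise without overlap, here and in the comparisons below, was not counted. It took 6.34% ± 0.13 of all reads in differentiated inputs and 1.52% ± 0.32 in undifferentiated inputs (SD, n = 3 each), and ranked 5 to 6 among the names of a library in the first group and 8 to 11 in the second.

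The 5p arm was scarce beside it. miR-378a-5p had 626, 596 and 493 CPM in differentiated inputs and 308, 133 and 292 CPM in undifferentiated inputs, again without overlap. miR-378c had 740, 772 and 546 CPM in differentiated inputs and 241, 153 and 323 CPM in undifferentiated inputs, also without overlap. In differentiated inputs the levels of miR-378c and miR-378a-5p lay close together, at 686 ± 122 and 571 ± 70.0 CPM, and their ranges met. In undifferentiated inputs they averaged 239 ± 85.1 and 244 ± 96.3 CPM, and neither ranking holds beyond the spread.

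All 3 names rose with differentiation in the inputs, where 62.3% of the 313 names tested passed the threshold in either direction (limma on log2(CPM + 10), Benjamini-Hochberg adjusted p under 0.05). That background was mostly downward, with 50 names higher and 145 lower and a median of -0.64 on the log2 scale over all names tested. Rescaling with factors computed from the inputs alone gave 88 higher and 90 lower and a median of -0.08. miR-378a-3p changed by 1.58 ± 0.33 on the log2 scale (SE, adjusted p = 0.00115 in limma), a 2.94-fold ratio of mean CPM. miR-378a-5p changed by 1.27 ± 0.37 (adjusted p = 0.00894 in limma), a 2.34-fold ratio of means. This call was lost when differentiated input A was left out (1.20, adjusted p = 0.0503 in limma). miR-378c changed by 1.53 ± 0.35 (adjusted p = 0.00235 in limma), a 2.87-fold ratio of means. Relative to the median of all names tested the 3 changes were 2.21, 1.91 and 2.17, and by size of the rise the names ranked 26, 31 and 28 of 313. The libraries are bulk RNA, so that more RNA per cell and a larger share of cells holding it cannot be told apart. The authors' deposited table gave 1.55 for miR-378a-3p, 1.22 for miR-378a-5p and 1.52 for miR-378c in the same comparison.

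**Figure D1:**
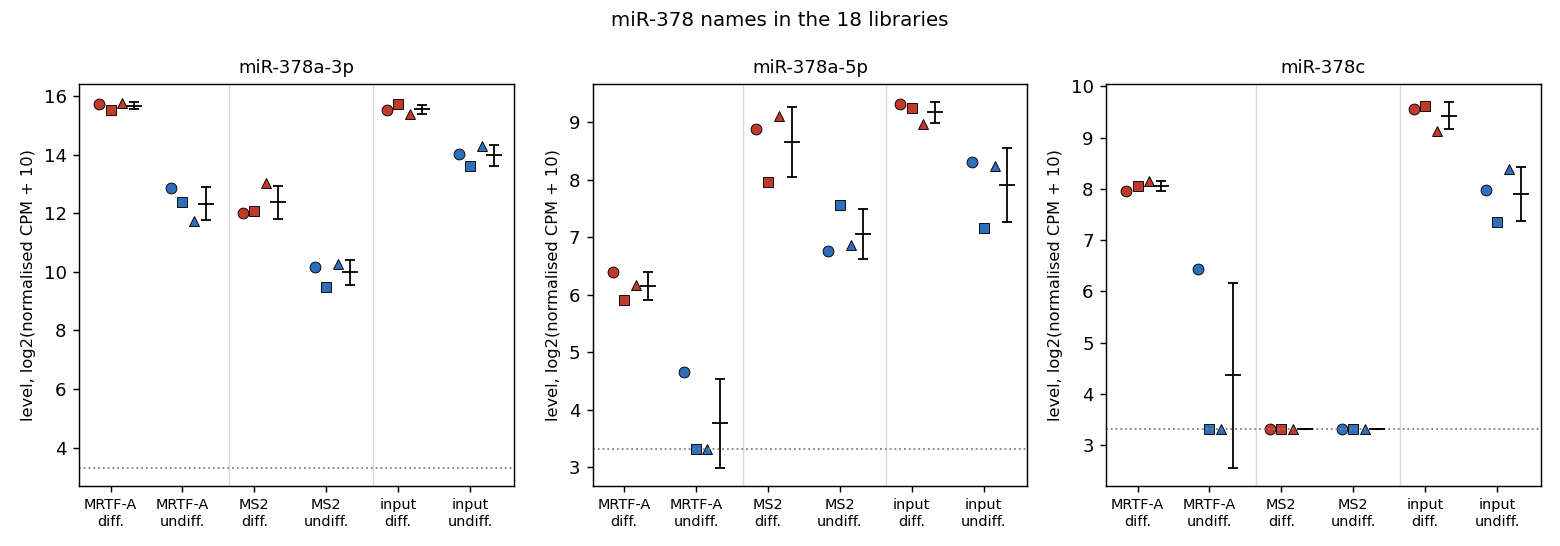
Levels of miR-378a-3p, miR-378a-5p and miR-378c in each of the 18 libraries, as log2(normalised CPM + 10) on the y axis, by group on the x axis (red, differentiated; blue, undifferentiated; circle, square and triangle are libraries A, B and C; black bars are the mean ± SD of 3 libraries; the dotted line is 0 reads). All 3 names are higher in differentiated than in undifferentiated inputs, miR-378a-5p is low in MRTF-A eluates, and miR-378c has 0 reads in all 6 MS2 control libraries.

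Other names holding miR-378 moved the same way in the inputs. miR-378d, which was no member of the set followed here, had 7087, 8104 and 5895 CPM in differentiated inputs and 3267, 2790 and 4443 CPM in undifferentiated inputs. It changed by 1.02 ± 0.32 (adjusted p = 0.0135 in limma). miR-378b stayed low, with 58 reads summed over the differentiated inputs and 15 over the undifferentiated inputs, and changed by 1.22 ± 0.33 (adjusted p = 0.0061 in limma). The human name miR-378j had 0 reads in all 18 libraries.

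The ratio of the 2 arms did not differ between states beyond the spread of the inputs. Differentiated inputs held 75.7, 90.5 and 87.7 reads of the 3p arm per read of the 5p arm, and undifferentiated inputs held 54.5, 92.9 and 68.7. The ranges overlapped. On the scale log2((3p CPM + 10) / (5p CPM + 10)) the difference was 0.30, with a two-sided exact permutation p of 0.3, where 3 libraries against 3 cannot go below 0.1. For miR-378c the proportion to miR-378a-3p was close in both states, with reads equal to 1.42% ± 0.15 of those of miR-378a-3p in differentiated inputs and 1.43% ± 0.19 in undifferentiated inputs (SD, n = 3 each). The log2 ratio of the 2 names differed by -0.05 (two-sided exact permutation p = 0.7). The reads of miR-378d equalled 14.9%, 15.0% and 13.6% of those of miR-378a-3p in differentiated inputs and 19.5%, 22.5% and 22.2% in undifferentiated inputs. The groups did not overlap, and the log2 ratio differed by -0.56 (two-sided exact permutation p = 0.1, the smallest 3 libraries against 3 can give, and 0.171 after Benjamini-Hochberg adjustment over 12 ratio tests, most of them chosen after the values were seen).

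**Figure D2:**
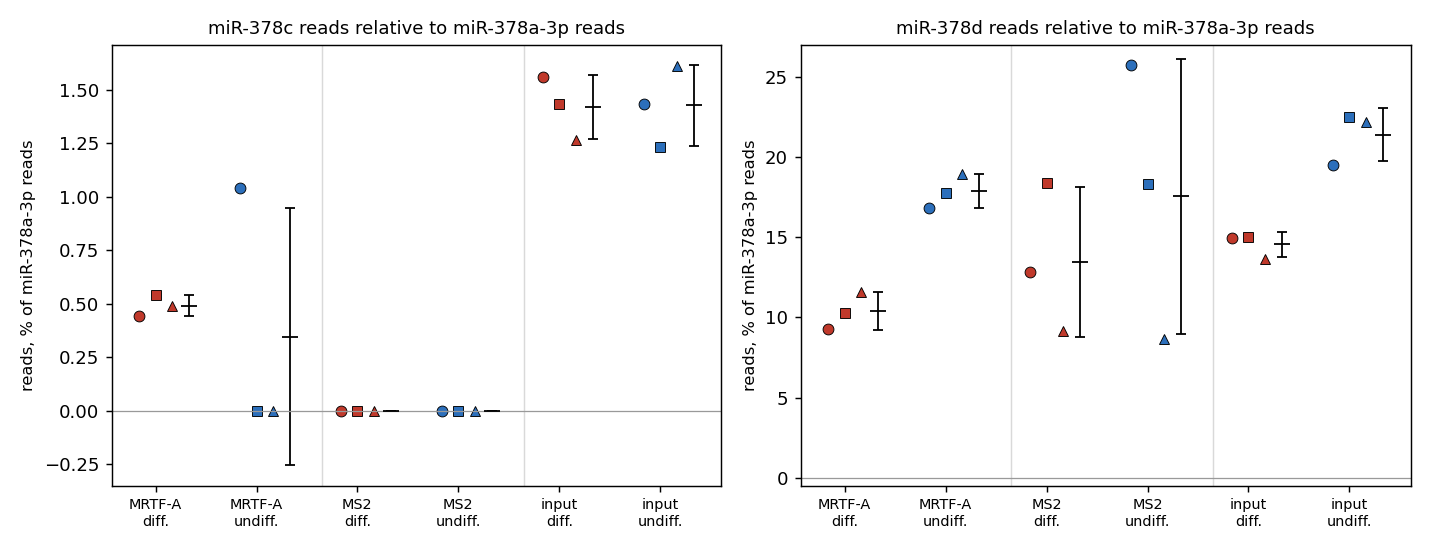
Reads of miR-378c (left) and miR-378d (right) as a percentage of the reads of miR-378a-3p in the same library on the y axis, by group on the x axis (red, differentiated; blue, undifferentiated; circle, square and triangle are libraries A, B and C; black bars are the mean ± SD). miR-378c stands at 1.42% and 1.43% of miR-378a-3p in the differentiated and undifferentiated inputs, while miR-378d stands at 14.5% and 21.4%.

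Among muscle miRNAs, the fitted rises of the 3 names lay below those of all 7 myomiRs tested, a difference that was not tested. These myomiRs, a list made up of miR-1a, miR-133, miR-206, miR-208b, miR-499 and miR-486 species, all rose in the inputs with a median of 4.32, against -0.64 over all names tested. The steepest was miR-1a-3p, which promotes myoblast differentiation, at 9.46 ± 0.31 (adjusted p = 3.79e-11 in limma), and the least steep was miR-208b-3p, from an intron of the myosin gene Myh7, at 2.30 ± 0.24 (adjusted p = 9.25e-06 in limma). Of 24 other miRNAs of muscle differentiation 21 were tested, 5 rose and 8 fell, with a median of -0.35. Over all names tested 16% were called higher and 46.3% lower, so the share called in this list was near the background. miR-128-3p (2.84 ± 0.33, adjusted p = 1.32e-05 in limma) rose most, and miR-222-3p, known to decline as myoblasts differentiate (-2.70 ± 0.36, adjusted p = 4.79e-05 in limma), fell most. Of 13 names linked to energy metabolism and PGC-1, 6 were tested, 0 rose and 3 fell, with a median of -0.67, again near the 46.3% called lower and the median of -0.64 over all names tested. Those that fell were miR-107-3p (-1.18 ± 0.32, adjusted p = 0.00665 in limma), miR-34a-5p (-1.06 ± 0.41, adjusted p = 0.0357 in limma) and miR-103-3p (-0.97 ± 0.34, adjusted p = 0.0251 in limma). miR-103 and miR-107 are encoded in introns of pantothenate kinase genes. The tested member with the highest value was miR-210-3p, a miRNA induced by hypoxia, at 0.30 ± 0.44 (adjusted p = 0.567 in limma). Markers of other cell types differed in abundance. The 5 blood names and miR-122-5p of liver passed no filter and summed to at most 4.30 and 1.66 CPM in an input library. Of 6 epithelial names 1 was tested and did not pass, miR-205-5p at -0.58 ± 0.40 (adjusted p = 0.231 in limma). Of 2 neural names 1 was tested and fell, miR-9-5p at -1.74 ± 0.35 (adjusted p = 9.72e-04 in limma). The endothelial and smooth muscle names, chiefly miR-143-3p and miR-145a-5p, summed to 23202 to 52914 CPM in differentiated inputs and 27373 to 28120 CPM in undifferentiated inputs, and both tested names missed the threshold. Their part in the rise of the miR-378 names was not tested.

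In the eluates the question was which miRNAs come down with the MRTF-A message more than with the control bait. In CPM as scaled by the authors, miR-378a-3p was recovered with the MRTF-A bait above the MS2 control in both states. In differentiated cells it had 54173, 47465 and 55900 CPM with the MRTF-A bait and 4151, 4291 and 8286 CPM with the MS2 control, a 9.42-fold ratio of means without overlap. In undifferentiated cells it had 7374, 5325 and 3390 CPM with the MRTF-A bait and 1149, 712 and 1238 CPM with the MS2 control, a 5.19-fold ratio of means, also without overlap. How common such separation was among the names tested was not counted. In undifferentiated cells the separation depended on the scaling. As a share of a library's reads miR-378a-3p took 0.449%, 0.182% and 0.191% with the MRTF-A bait there. With the MS2 control it took 0.171%, 0.151% and 0.238%, and these ranges overlapped. Behind the values of miR-378a-3p lie 37542 reads with the MRTF-A bait and 556 with the MS2 control in differentiated cells. In undifferentiated cells there were 1391 with the MRTF-A bait and 153 with the MS2 control.

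This was called in differentiated cells, where 79.3% of the 169 names tested were called, at 3.31 ± 0.37 on the log2 scale (adjusted p = 4.78e-06 in limma). It was called in undifferentiated cells, where 60.4% of names were called, at 2.33 ± 0.37 (adjusted p = 1.16e-04 in limma). These rises sat inside a general one, with 97 names higher and 37 lower in differentiated and 73 higher and 29 lower in undifferentiated cells, and the median over all names tested was 2.37 in differentiated and 1.16 in undifferentiated cells. Relative to those medians miR-378a-3p stood at 0.94 and 1.18, and it ranked 68 and 66 of 169. Under scaling to library totals, which moved the median to 1.18 in differentiated and -0.25 in undifferentiated cells and the calls to 73 higher and 49 lower in differentiated and 55 higher and 63 lower in undifferentiated cells, the value in undifferentiated cells was 0.45 and was not called (adjusted p = 0.467 in limma). It stayed called with factors recomputed from the eluates alone (2.08, adjusted p = 3.57e-04 in limma) and with median-of-ratios scaling, the RLE method of edgeR (2.06, adjusted p = 9.09e-05 in limma). In the differentiated MRTF-A eluates the 3 muscle miRNAs named above summed to 575006 to 644245 CPM, against 6409 to 9167 CPM in the MS2 control eluates. Their part in the values of the other names was not tested.

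miR-378a-5p went the other way. In differentiated cells it had 74.1, 50.0 and 61.7 CPM with the MRTF-A bait and 465, 240 and 542 CPM with the MS2 control. In undifferentiated cells it had 15.3, 0 and 0 CPM with the MRTF-A bait, which was a single read in library A, and 98.5, 178 and 107 CPM with the MS2 control, from 23 reads. The groups did not overlap in either state. The 5p arm was lower with the MRTF-A bait, at -2.50 ± 0.52 in differentiated cells (adjusted p = 7.71e-04 in limma) and at -3.29 ± 0.52 in undifferentiated cells (adjusted p = 1.15e-04 in limma). It passed the filter on low values among eluates only through the differentiated MS2 control, where it is high, so the differentiated value is a description and its call no support. The undifferentiated value compares other groups, but the name entered its fit only through that one. All eluate groups also share an estimate of the spread. With no filter the undifferentiated value was -3.29 (adjusted p = 2.2e-04 in limma). Over the alternatives, other scalings included, the values ran over -3.79 to -2.00 in differentiated and -5.61 to -1.67 in undifferentiated cells. All kept their sign, and calls among those of differentiated cells add no support, for the same reason. Counted from the lowest of the 169 names tested, the main values ranked 21 in differentiated and 10 in undifferentiated cells, the first again as a description. Of all names tested, 37 in differentiated and 29 in undifferentiated cells were called lower.

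The 2 arms of the hairpin therefore stood in very different proportions in the 3 kinds of RNA. There were 731 to 950 reads of the 3p arm per read of the 5p arm in differentiated MRTF-A eluates, 8.93 to 17.9 in differentiated MS2 control eluates and 75.7 to 90.5 in differentiated inputs. In undifferentiated cells the only MRTF-A library with a read of the 5p arm had 481, the MS2 control eluates had 4 to 11.7 and the inputs 54.5 to 92.9. As the log2 ratio with 10 CPM added to each arm, MRTF-A eluates exceeded MS2 control eluates by 5.81 in differentiated and 5.63 in undifferentiated cells. Each gave a two-sided exact permutation p of 0.1, the smallest possible, and 0.171 after adjustment over the 12 ratio tests. Every MRTF-A library was above every control library. Permuting within both states together gave a difference of 5.72 and a two-sided exact permutation p of 0.005, the smallest of its 400 arrangements (0.02 after Benjamini-Hochberg adjustment over the 12 ratio tests). MRTF-A eluates also exceeded inputs by 2.82 (two-sided exact permutation p = 0.005, adjusted 0.02). Both of these tests were chosen after the values were seen. A ratio within a library does not depend on the scaling between libraries, apart from the 10 CPM added.

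**Figure D3:**
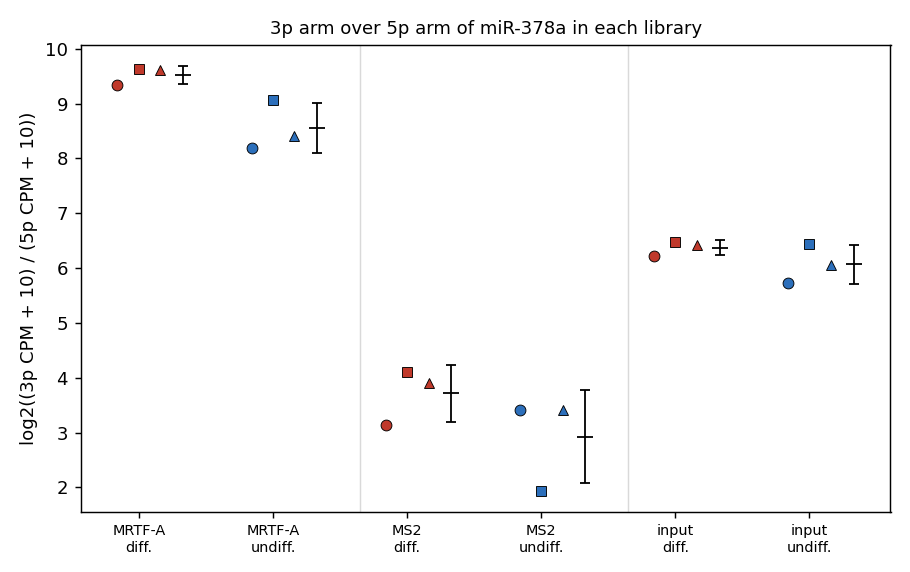
Log2 of the 3p arm over the 5p arm of miR-378a, with 10 CPM added to each, in each library on the y axis, by group on the x axis (red, differentiated; blue, undifferentiated; circle, square and triangle are libraries A, B and C; black bars are the mean ± SD of 3 libraries). The MRTF-A eluates average 9.52 and 8.55, the MS2 control eluates 3.72 and 2.93 and the inputs 6.37 and 6.07 in differentiated and undifferentiated cells.

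miR-378c was read in the MRTF-A eluates and never in the control. In differentiated cells it had 240, 257 and 273 CPM with the MRTF-A bait, from 185 reads, and 0 reads in all 3 MS2 control libraries. Those libraries are shallow, and 3 reads in one of them would be worth 81.2 to 103 CPM. The mean CPM of miR-378c with the MRTF-A bait was 2.71-fold the mean of that limit over the 3 control libraries. Among the eluates miR-378c passed the filter on low values only through the differentiated MRTF-A group, the one where it is high, so its fitted values among eluates are given as descriptions and their calls support nothing. The fitted value here was 4.73 ± 0.66 on the log2 scale, a size that depends on the 10 CPM added, and the authors' deposited table gave 8.14. DESeq2 on the recovered reads did not call it (adjusted p = 0.117). In undifferentiated cells it had 76.7, 0 and 0 CPM with the MRTF-A bait, all 5 reads in library A, and 0 reads in the MS2 control. The fitted value was 1.04 ± 0.66 and was not called (adjusted p = 0.181 in limma). The depth of the control bounds what can be said. For a share of reads the limit was taken as 3 reads over the libraries of a group summed. With 556 reads of miR-378a-3p in the differentiated MS2 control eluates, 0 reads of miR-378c then allow up to 0.54% of that number by counting error alone. The share was 0.49% ± 0.05 in differentiated MRTF-A eluates and 1.42% ± 0.15 in differentiated inputs (SD, n = 3 each). In undifferentiated MS2 control eluates 0 reads beside 153 allow up to 1.96%. Reads are not independent molecules, so these limits cover counting error only.

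**Figure D4:**
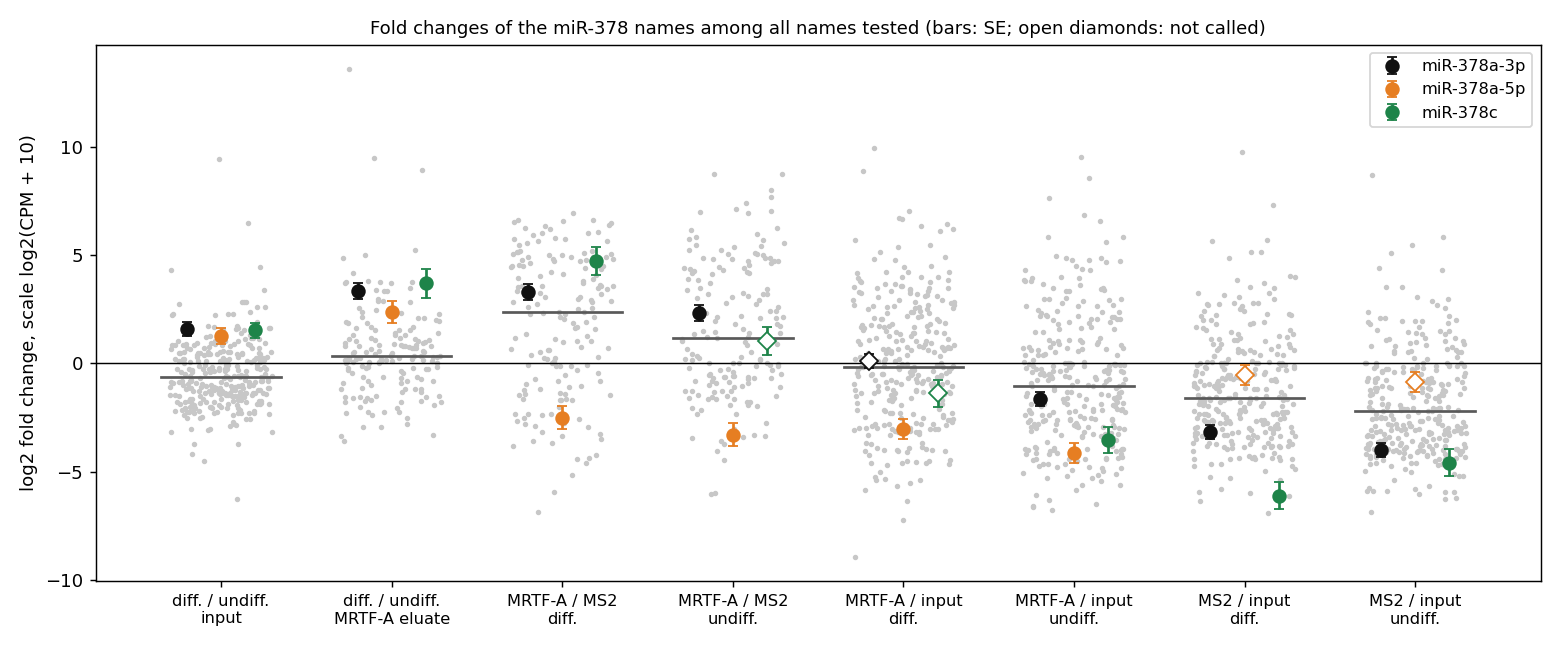
Log2 fold changes on the log2(CPM + 10) scale (y axis) in 8 comparisons (x axis), with the names tested in grey, their median as a dark line, and miR-378a-3p (black), miR-378a-5p (orange) and miR-378c (green) with their SE; filled circles were called and open diamonds were not. Among eluates miR-378c passed the filter only through the differentiated MRTF-A group and miR-378a-5p only through the differentiated MS2 control, so calls that rest on those groups' height are no support. In inputs all 3 stand above the median of -0.64, and between MRTF-A and MS2 control eluates miR-378a-3p and miR-378a-5p lie on opposite sides of 0.

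The bait effect, meaning MRTF-A bait over MS2 control, was then compared between differentiated and undifferentiated cells. Of the names tested 13% were called. miR-378a-3p differed by 0.97 ± 0.52 (adjusted p = 0.242 in limma) and miR-378a-5p by 0.79 ± 0.74 (adjusted p = 0.525 in limma), so no difference of either arm was shown. For miR-378c no difference in bait effect can be measured, because its control is at 0 reads in both states. Its fitted value, 3.69 ± 0.93, equals its difference between the MRTF-A eluates of the 2 states. That value passed the threshold in limma (adjusted p = 0.0241), which is no support, since the name entered the fit only through its high group. It was not called by edgeR on the recovered reads (adjusted p = 1.00), nor with 1 CPM added (5.91, adjusted p = 0.0798 in limma), and it lost the call without each of 9 eluate libraries in turn. Those were differentiated MRTF-A B and C, undifferentiated MRTF-A B and C, differentiated MS2 control A and B and all 3 undifferentiated MS2 control libraries, with values of 3.18 to 3.69 and adjusted p of 0.0513 to 0.0649 in limma.

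Within the MRTF-A eluates both arms of miR-378a were higher in differentiated than in undifferentiated cells, in a comparison where 38.5% of names were called, 40 higher and 25 lower, and the median was 0.33. Median-of-ratios scaling gave 33 higher and 37 lower. miR-378a-3p changed by 3.36 ± 0.37 (adjusted p = 1.63e-05 in limma) and miR-378a-5p by 2.39 ± 0.52 (adjusted p = 0.00308 in limma). The 5p value compares 44 reads in differentiated with 1 read in undifferentiated cells. For miR-378c, whose filter passed through its high group, the fitted difference of 3.69 ± 0.66 sets 185 reads in differentiated against 5 reads in undifferentiated cells, and DESeq2 did not call it (3.35, adjusted p = 0.405). In the MS2 control eluates, for which no fit between states was made, miR-378a-3p averaged 5576 ± 2348 CPM in differentiated and 1033 ± 281 CPM in undifferentiated cells, and miR-378a-5p 416 ± 157 and 128 ± 43.8 CPM (SD, n = 3 each), without overlap for either arm.

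The eluates were also set against the input of the same state. miR-378a-3p in differentiated MRTF-A eluates was not shown to differ from input, at 0.13 ± 0.33 (adjusted p = 0.772 in limma), where 62% of the 305 names tested were called and the ranges of the 2 groups overlapped. With library totals the same comparison gave -1.07 (adjusted p = 0.0457 in limma), so its direction depends on the scaling. In undifferentiated cells, where 68.5% were called, it was lower in MRTF-A eluates than in input, at -1.65 ± 0.33 (adjusted p = 2.82e-04 in limma), which was -0.37 (adjusted p = 0.308 in limma) with median-of-ratios scaling. The median over all names tested was -1.04 in undifferentiated and -0.14 in differentiated cells. Relative to the undifferentiated median miR-378a-3p stood at -0.62, and counted from the highest it ranked 174 of 305. Names called in undifferentiated cells were 71 higher and 138 lower, against 50 and 159 with library totals and 91 and 96 with median-of-ratios scaling. In differentiated cells they were 95 higher and 94 lower, against 69 and 125 with library totals. miR-378a-5p was lower in MRTF-A eluates than in input in both states, at -3.02 ± 0.46 in differentiated (adjusted p = 2.01e-05 in limma) and -4.13 ± 0.46 in undifferentiated cells (adjusted p = 6.36e-07 in limma). miR-378c was lower, at -3.54 ± 0.62 in undifferentiated cells (adjusted p = 8.01e-05 in limma). In differentiated cells it gave -1.37 ± 0.62 (adjusted p = 0.0621 in limma), which edgeR and DESeq2 on the recovered reads called at -1.42 each (adjusted p = 0.0194 and 0.00368).

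The MS2 control eluates set against input separated the names again. miR-378a-3p was lower in MS2 control eluates, at -3.18 ± 0.33 in differentiated cells, where 69.2% of names were called (adjusted p = 6.71e-07 in limma). In undifferentiated cells, where 71.1% were called, it was lower, at -3.99 ± 0.33 (adjusted p = 3.99e-08 in limma). miR-378c, at 0 reads, was lower in MS2 control eluates than in input. Its mean CPM in input was 7.25-fold the mean limit of 3 reads per control library in differentiated and 3.62-fold in undifferentiated cells. miR-378a-5p was not called in either state. It averaged 416 ± 157 CPM in MS2 control eluates and 571 ± 70.0 CPM in inputs of differentiated cells, and 128 ± 43.8 and 244 ± 96.3 CPM in undifferentiated cells (SD, n = 3 each), with overlapping ranges. The fitted values were -0.52 ± 0.46 (adjusted p = 0.328 in limma) and -0.84 ± 0.46 (adjusted p = 0.115 in limma). The median over all names was -1.58 in differentiated and -2.19 in undifferentiated cells, and with median-of-ratios scaling the 2 values turned positive, at 0.31 and 0.97. That scaling moved the calls of undifferentiated cells to 54 higher and 122 lower, against 26 and 191.

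Reads of miR-378c and miR-378d stood in smaller proportion to those of miR-378a-3p in MRTF-A eluates than in input. miR-378c equalled 0.49% ± 0.05 of miR-378a-3p reads in differentiated MRTF-A eluates, against 1.42% ± 0.15 in differentiated inputs. The difference in log2 ratio was -1.50 without overlap (two-sided exact permutation p = 0.1, the smallest possible, and 0.171 adjusted over the 12 ratio tests). This test was not among those planned. miR-378d equalled 10.4% ± 1.18 of miR-378a-3p reads in differentiated MRTF-A eluates and 14.5% ± 0.78 in differentiated inputs. In undifferentiated cells it equalled 17.9% ± 1.06 in MRTF-A eluates and 21.4% ± 1.66 in inputs (SD, n = 3 each). Within both states its log2 ratio to miR-378a-3p was lower, at -0.37 in MRTF-A eluates (two-sided exact permutation p = 0.005, adjusted 0.02 over the 12 ratio tests). Against the MS2 control the same ratio differed by -0.12 (two-sided exact permutation p = 0.65). Between baits miR-378d went with miR-378a-3p, at 2.97 ± 0.39 in differentiated (adjusted p = 2.14e-05 in limma) and 2.43 ± 0.39 in undifferentiated cells (adjusted p = 1.36e-04 in limma).

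Over the 18 libraries, the name whose log2(CPM + 10) was most like that of miR-378a-3p was miR-378d, with a Pearson r of 0.974 across libraries, given as a description. It was followed by miR-181a-5p (0.958), miR-486-5p (0.908), its second name miR-3107-5p (0.897) and miR-378c (0.889). The libraries share group, bait and scaling, which this measure does not remove. miR-378a-5p, from the same hairpin, ranked 202 of 304 names, with r = 0.238. Over the 6 inputs alone the 2 arms were closer, with r = 0.946 and rank 26 of 312. The 5 names most like miR-378a-3p there were miR-26a-5p (0.990), miR-378c (0.987), miR-128-3p (0.984), miR-378d (0.980) and miR-486-5p (0.980).

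**Figure D5:**
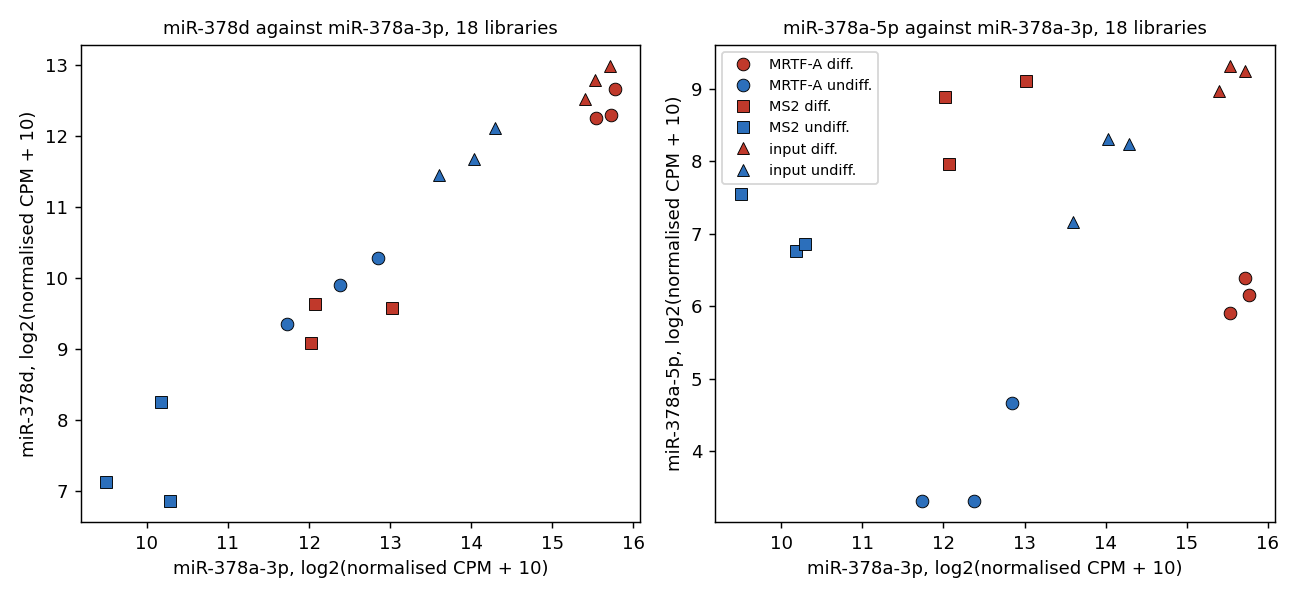
Levels of miR-378d (left) and miR-378a-5p (right) on the y axes against miR-378a-3p on the x axes, all as log2(normalised CPM + 10), 1 point per library (circles, MRTF-A eluates; squares, MS2 control eluates; triangles, inputs; red, differentiated; blue, undifferentiated). miR-378d follows miR-378a-3p over the 18 libraries (r = 0.974), while miR-378a-5p is lower in each MRTF-A eluate than in any other library (r = 0.238 over the 18).

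The Mrtfa message was searched for letters complementary to the printed seeds. The longest annotated 3′ UTR of Mrtfa, that of Mrtfa-204 with 1004 bases, held 0 matches to AGTCCAG (miR-378c), 0 to AGGCCAG (miR-378d) and 0 to AAGTCCA (miR-378b) on the sense strand. The 6-base cores of these letters gave 0 matches for miR-378c (GTCCAG), 1 for miR-378d (GGCCAG) and 0 for miR-378b (AGTCCA). Of the first 1004 bases of the 11086 annotated 3′ UTRs at least that long, 8.87% held the longer letters of miR-378c, 15.1% those of miR-378d and 7.13% those of miR-378b. The cores were held by 25.6%, 33.2% and 22.7% in the same order. The search covers these letters in this window only, and the bait's own sequence was not used here.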

How the data were processed

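Small RNA libraries of C2C12 lysates and miTRAP eluates were sequenced as 50 bp reads, per the labels' protocols. The submitters' processing notes name edgeR 3.18.1, featureCounts 1.4.6, cutadapt 1.4.2 and Bowtie2 2.0.13, with build GRCm38. How reads matching several miRNAs were treated is not stated there. The values the authors deposited are a normalised signal per mature miRNA name, which steps in whole reads: dividing by the step of each library gave the reads and the effective library sizes. The deposited table also holds the authors' own log2 fold changes, p-values and adjusted p-values, quoted only where named. No column of per-sample values was left unused.

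The main test was limma 3.58.1 (R 4.3.3, trend) on log2(CPM + 10), over names kept by edgeR's filterByExpr on the recovered reads, with Benjamini-Hochberg adjustment over all names tested and a threshold of 0.05. The inputs (6 libraries, 313 names), the eluates (12 libraries, 169 names) and all 18 libraries for eluate against input (305 names) were fitted separately. All 3 members passed each filter, but among the eluates miR-378c did so only through the differentiated MRTF-A group and miR-378a-5p only through the differentiated MS2 control. A fold change on this scale understates that of scarce names. A level is given as CPM with its SD over 3 libraries. Ratios of 2 names within a library were tested by exact permutation (Python 3.11.15, numpy 2.4.6), two-sided. A limit for 0 reads is 3 reads per library, averaged over the libraries of a group, or for a share of reads 3 reads over those libraries summed. Count tests on the recovered reads, with edgeR 4.0.16 quasi-likelihood and DESeq2 1.42.0, other scalings, filters and pseudocounts, left-out libraries and a replicate block were alternatives. Both count tests kept the authors' effective library sizes, so neither is a check of the scaling. edgeR called 49 names higher and 152 lower in the inputs. The limma and edgeR fits were run on counts simulated with known changes, which does not cover DESeq2 or the permutation tests. The simulated spread was fixed, and whether it matches that of these libraries was not tested. Replicates of a group differed beyond counting noise, the closest pair (differentiated MS2 control A and B) having a chi-square of 3.90 per degree of freedom.

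The members and the lists were chosen with earlier results of these data known. Besides the members, the text names other miR-378 names, the 5 names with the highest Pearson correlation to miR-378a-3p over the 18 libraries and over the 6 inputs, and of each list the tested names with the largest rise and fall in the inputs; the third lower name of the energy list and miR-143-3p, miR-145a-5p and miR-205-5p were named after their values were seen. The letters follow the column suffixes and were not tied to the numbers in the sample titles.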

Additional observations from a re-analysis of the deposited data

Results flagged for a closer look

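One value was singled out because a test of the bait effect (MRTF-A bait over MS2 control) between differentiated and undifferentiated cells passed its threshold. For miR-378c the fitted log2 difference was 3.69 ± 0.93 (adjusted p = 0.0241 in limma, 13% of 169 names called). It rests on 185 reads in the 3 differentiated MRTF-A eluates, 5 reads in 1 of the 3 undifferentiated MRTF-A eluates and 0 reads in all 6 MS2 control libraries. With both controls at 0 reads, and with the name in the fit only through its high group, it measures no difference in bait effect and its p is no support. It kept the call in 8 of 22 alternatives, and edgeR gave an adjusted p of 1.00.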

How the results depend on the processing

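Of 486 recomputed values for 29 results, 457 kept their direction and their side of the threshold, 19 kept the direction and lost the call, 5 gained one and 5 reversed. These counts are no measure of robustness. They include the fits of miR-378c among eluates and of miR-378a-5p between baits in differentiated cells, whose calls are no support. For eluates over input, factors recomputed from the libraries fitted gave the same calls and medians as the main fit, so that alternative could not differ. For miR-378a-3p, library totals gave 0.45 between baits in undifferentiated cells (call lost) and -1.07 in differentiated MRTF-A eluates over input (reversed), and median-of-ratios scaling gave -0.37 in undifferentiated MRTF-A eluates over input (call lost). For miR-378a-5p in MS2 control eluates over input, the direction reversed with library totals (0.077) and median-of-ratios scaling (0.97) in undifferentiated cells and with median-of-ratios scaling (0.31) in differentiated cells. Its bait effect between states reversed with 50 CPM added (-0.32). For miR-378c the bait effect between states lost its call with 1 CPM added (5.91), without the filter (3.69), in edgeR (3.58) and with either kind of MS2 control library alone (3.69 each). DESeq2 lost its calls between baits in differentiated cells (5.47) and between states in MRTF-A eluates (3.35). In differentiated MRTF-A eluates over input it gained a call with 50 CPM added (-1.25), library totals (-2.52), edgeR (-1.42) and DESeq2 (-1.42). The causes were not tested. Leaving out 1 library at a time gave 0.90 to 1.48 for miR-378a-5p in the inputs, 3.18 to 4.73 for the bait effect of miR-378c between states and -1.21 to -0.64 for miR-378a-5p in undifferentiated MS2 control eluates over input, where leaving out undifferentiated input B gained a call. For the arm ratio the alternatives ran over 0.13 to 0.48 in the inputs and 5.47 to 6.97 between baits.

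The 22 names whose bait effect was called between states became 11 with 1 CPM added, 38 with 50 CPM, 2 without the filter, 14 with library totals and in DESeq2, 13 with only MS2 control libraries under 0.5% human names, 8 without differentiated MRTF-A B, 4 without differentiated MS2 control B, 5 without undifferentiated MS2 control C, and 0 in edgeR, where 40 had an unadjusted p under 0.05. Without the filter the calls of differentiated MRTF-A eluates over input were 141 higher and 166 lower. Same-letter libraries did not deviate together in the inputs (correlations of -0.195, 0.139 and -0.0819), nor for every letter between baits in undifferentiated cells (0.168, 0.106 and 0.0635). Every letter was over 0.1 between baits in differentiated cells (0.139, 0.122 and 0.213), between the MRTF-A eluates of the 2 states (0.174, 0.158 and 0.178) and between differentiated MRTF-A eluates and inputs (0.133, 0.274 and 0.402). The main fits compared group means and did not pair libraries by letter. With the letter as a replicate block no member gained or lost a call, with values such as 1.57 (adjusted p = 0.00587 in limma) for miR-378a-3p in the inputs. The shallow MS2 control libraries limit what can be said of miR-378c.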
